A study of Mus musculus with 20 samples.

Results

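The cytosolic ribosomal protein genes were followed across brain monocytes and microglia of mice with stroke. They were chosen by symbol alone: names of Rpl or Rps followed by a number (with the usual letters for paralogs), and Rplp0, Rplp1, Rplp2 and Rpsa. Pseudogenes, ribosomal S6 kinase genes and mitochondrial ribosomal protein genes were not taken. By this rule 84 of 16536 genes in one count table and 84 of 16140 in the other were members. The tables together hold 85, since Rpl10l stands only in the first and Rpl3l only in the second. Of the 84 in each, 43 encode the large subunit, 31 the small subunit (Rpsa included), 3 the stalk and 7 are paralog forms of another member.

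All 20 libraries came from mouse brain taken 3 days after permanent photothrombosis, which clots cortical vessels by lighting a dye in the blood. The GFP table holds total RNA of Cxcr4-GFP mice, in 4 libraries of microglia without GFP and 4 of monocytes with GFP. The libraries form 4 pairs by source, of which 2 are of a single mouse each, 1 is of 2 mice and 1 pools 5. The Cre table holds polyA RNA of Cxcr4CreER mice, in which the Cre recombinase is active after tamoxifen, with 3 libraries each of control microglia, control monocytes, conditional Cxcr4 knockout (KO) microglia and KO monocytes. In both genotypes the monocytes carry the TdT reporter by label (TdT-positive) and the microglia do not (TdT-negative), so that population and reporter signal coincide in each table. The labels used here give no age, sex or tamoxifen schedule, and titles of all GFP libraries carry the same tag, BrKo, as the KO libraries, which the labels do not explain.

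Each value is a normalized count, on a scale of its own in each table, and no normalized count was compared between the tables. Cxcr4 stood at 1183, 1332 and 1166 normalized counts in the 3 control monocyte libraries and at 784, 1010.3 and 536 in the KO monocytes; the values do not show which part of the gene was deleted. All 6 Cre microglia libraries were between 0 and 7.88, so a deletion could not be seen in KO microglia. The summed level of 10 microglia markers was 96096 to 164459 in Cre microglia and 8959 to 14800.3 in Cre monocytes; that of 10 monocyte markers was 333605 to 416448 in monocytes and 15624 to 24538 in microglia. Neutrophil markers (11 genes) summed to 18372 to 42544 in control monocytes and 40352 to 75425 in KO monocytes, against 908 to 4030.0 in the microglia of both genotypes; 7 of the 11 were at 0 in all control microglia and 5 in all KO microglia, and none in all monocytes of a genotype. For the GFP libraries the neutrophil sums of monocytes (425 to 1956) and microglia (892 to 1461) overlapped. Yet 4 of the 11 genes were at 0 in all GFP microglia and none in all GFP monocytes, so this overlap does not show like neutrophil content. Dendritic cell markers (5 genes) were higher in sum in microglia, at 9475 to 12938 against 1176 to 3362 in Cre monocytes and at 911 to 1255 against 0 to 92.1 in GFP monocytes. Siglech is both among these 5 and among the 10 microglia markers, so this sum does not measure dendritic cells alone. Microglia 3, microglia 4 and monocytes 3 of the GFP table held reads for only 5598, 3489 and 3029 genes, against 10422 to 14498 in the other 5 libraries, so results of that table are given with and without these 3.

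Ribosomes translate mRNA into protein, and each is built from a small subunit, which reads the mRNA, and a large subunit, which joins amino acids. Because every subunit needs 1 copy of nearly every ribosomal protein, the cell makes these proteins in step. Their mRNAs belong to a class that opens with a C followed by a run of pyrimidines (C or T), the 5′ terminal oligopyrimidine motif, through which growth signals of the mTOR pathway act on their translation. An effect on translation itself is not measured by mRNA counts. Ribosomal protein genes also have many processed pseudogenes and some expressed paralogs, from which reads are hard to tell apart.

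The start windows of a few members are shown because this motif is what the genes are best known to share and the selection by name did not use it. Sequences are from the RefSeq promoter table (GRCm38.p6), which matched 64 of the 85 members. Each runs from 10 bases before to 20 bases from the annotated transcription start, 5′ to 3′ on the gene's strand. Capitals mark a run of at least 5 C or T bases that opens with C within 5 bases of that start; windows with no capitals hold none. Rpl15 has the longest such run from the start itself, and Rps6 encodes the small subunit protein that S6 kinase phosphorylates. Rps9, Rplp0, Rpl10 and the paralog Rpl3l passed a test of the Cre table described further on. Rpl28 and Rpl38 passed it in a fit of 5 GFP libraries. So did Rps16, whose window holds no such run and is not shown, so these windows do not stand for all called members.
Rpl15 (chr14:18270967-18270996, minus strand): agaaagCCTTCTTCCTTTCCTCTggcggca
Rps6 (chr4:86857348-86857377, minus strand): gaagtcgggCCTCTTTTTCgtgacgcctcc
Rpl28 (chr7:4792955-4792984, plus strand): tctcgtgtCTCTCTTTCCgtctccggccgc
Rpl38 (chr11:114668570-114668599, plus strand): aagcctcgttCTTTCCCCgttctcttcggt
Rps9 (chr7:3704031-3704060, plus strand): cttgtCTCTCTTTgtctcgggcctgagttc
Rplp0 (chr5:115559457-115559486, plus strand): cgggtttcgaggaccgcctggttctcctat
Rpl10 (chrX:74270806-74270835, plus strand): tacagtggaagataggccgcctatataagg
Rpl3l (chr17:24727816-24727845, plus strand): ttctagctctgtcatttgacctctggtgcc

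The annotated start itself opened with such a run in 14 of the 64 members (21.9%), with runs of 5 to 13 bases, and in 2.96% of 26961 other genes. Allowing the run to open anywhere within 5 bases of the start gave 30 of 64 members (46.9%) and 21.1% of other genes. Among 69 mitochondrial ribosomal protein genes, none opened with a run at the start and 24.6% held one within 5 bases. The letters CCGGAAG were found on either strand of the 300-base window in 26 of the 64 members (40.6%), in 9.85% of other genes and in 37.7% of the mitochondrial set, and TATAAA in 12.5%, 15.7% and 7.25%. GGGCGG stood in 60.9% of members and 38.1% of other genes, and AAGATGGC in 9.38% and 3.17%. No run at a member's start lay inside CTTCCGG, the other strand of CCGGAAG, although CTTCC has the form of a run. These windows rest on annotated starts, which were not measured in these libraries. The members are spread over 19 chromosomes, 4 of them (Rpl10, Rpl36a, Rpl39 and Rps4x) on the X.

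Together the members took 2.84% to 4.02% of the reads of a Cre library. Their share was 3.74%, 3.23% and 3.52% in control microglia, 3.69%, 4.02% and 3.98% in control monocytes, 3.10%, 2.84% and 3.60% in KO microglia and 3.04%, 3.95% and 3.71% in KO monocytes. All groups overlapped save control monocytes and KO microglia. Among the GFP libraries, where the ribosomal RNA transcript Rn45s took 22.1% to 48.3% of reads, the share outside Rn45s was 1.03%, 0.991%, 0.546% and 0.983% in microglia and 1.39%, 1.92%, 1.41% and 1.40% in monocytes. Here every monocyte library was above every microglia library. In bulk RNA, more cells of a type and more RNA per cell cannot be told apart, and a share also moves with what the other genes do.

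**Figure D1:**
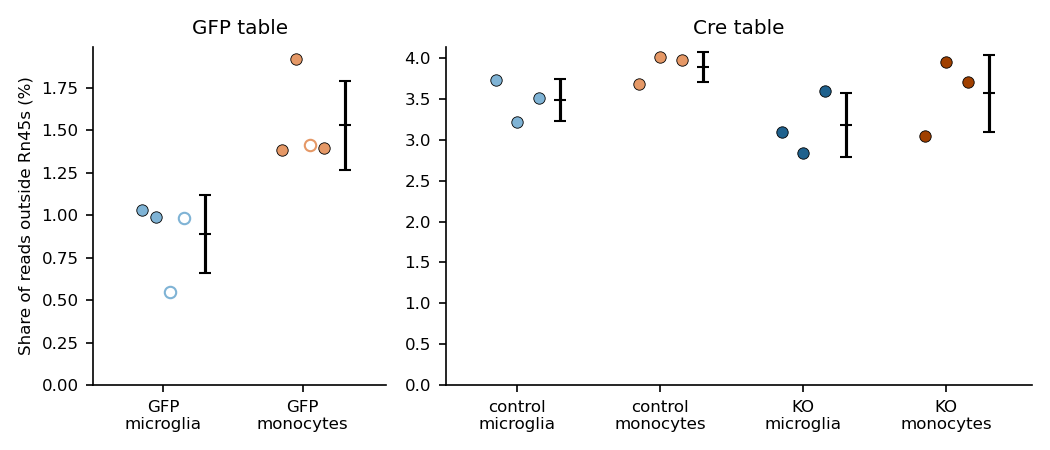
Share of reads outside Rn45s that fell on the members, in percent, per library (points), with the mean and SD of each group beside them; the GFP table is on the left and the Cre table on the right, each with its own axis from 0. Open points are the 3 GFP libraries with few detected genes. GFP monocytes lie between 1.39% and 1.92%, above the GFP microglia, while the Cre groups overlap in most pairs.

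The first question was how the members differ between monocytes and microglia in the injured brain. In control mice, 2 of 83 tested members were higher in monocytes, Rplp0 and Rpl10, and none was lower. In KO mice, 3 of 83 were higher, Rps9, Rpl8 and Rpl3l, and none was lower. Rpl3l was at 0 in all Cre microglia and met the filter on low values only through monocyte libraries, so its call is not separate support. The calls rest on limma's moderated test, with p adjusted by Benjamini-Hochberg over all genes tested and called under 0.05. These counts are 2.41% and 3.61% of the members, while 3.46% and 3.85% of all 12432 genes tested were called higher (6.52% and 6.83% in either direction), so the share of members called is no larger than that of genes in general. edgeR called neither member in control mice and only Rps9 in KO mice. With limma, Rplp0 lost its call when any 1 of the 6 control libraries was left out, and Rpl10 kept its call only without control microglia 1 and without control monocytes 3. In KO mice Rps9 lost its call without KO microglia 1 and without KO microglia 2, while Rpl8 and Rpl3l lost theirs without any 1 of the 6 libraries. The members' median fold lay above that of all genes tested, whose levels were not matched to the members. Log2 fold changes were above 0 for 64 members in control mice and 68 in KO mice, with medians of 0.34 and 0.32, against medians of -0.24 and -0.25 over all genes tested. This was not particular to the members. Initiation factors had medians of 0.20 and 0.19, and mitochondrial ribosomal protein genes -0.11 and 0.37. Ribosome assembly factors lay below all genes, at -0.43 and -0.51. The medians of members and of all genes moved with the scaling: by upper quartile the control medians were 0.09 for members and -0.47 for all genes, and per total reads the KO medians were 0.07 and -0.48. Without control microglia 2, the control medians were 0.11 and -0.16.

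An unadjusted p under 0.05 was reached by 14 members in control mice (16.9%), all with a positive log2 fold, where 19.5% of all genes reached it. In KO mice 23 members did (27.7%), of which 22 were positive and Rpl5 was negative, where 19.3% of all genes did. Neutrophil and dendritic cell marker levels also differed between these monocyte and microglia libraries, as given above, and their part in the differences was not tested. Over the 8 GFP libraries, where dendritic cell sums (Siglech included) differed too, the members' median log2 fold was 0.996 against 0.51 for all genes tested. Leaving out 1 library moved the members' median from 0.45 (without GFP monocytes 2, all genes 0.24) to 1.83 (without GFP monocytes 3, all genes 1.44), and it was 0.47 without GFP microglia 4 and 0.60 without GFP microglia 3.

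Of the GFP table, 79 members passed the filter on low values. None was called between monocytes and microglia by limma, where 0.908% of 7706 genes were called; edgeR and DESeq2 also called 0 members. An unadjusted p under 0.05 was reached by 7 members (8.86%), all with a positive log2 fold, against 7.53% of all genes. Rps9 had the smallest p, with a log2 fold of 3.68 (SE 1.30, adjusted p = 0.281). Without the 3 libraries of few detected genes, which leaves 2 microglia and 3 monocyte libraries, 7 members were called, all higher in monocytes, among them Rplp0, Rpl8, Rpl38, Rpl10, Rpl28 and Rps16. That is 8.86% of the members, beside 8.41% of all genes called higher and 15.5% called in either direction. With the animal as a block, the same 5 libraries gave 12 members called, all higher. Of the 7, 6 were among them, and Rps16 lost its call (limma adjusted p = 0.0693). Monocytes 4 has no microglia library of its animal among the 5, so these blocked folds rest on 2 pairs. The share of all genes called in the blocked fit is not given here. Without the block, the members' median log2 fold was 0.52 and that of all genes -0.07, and 31 members (39.2%) had an unadjusted p under 0.05 where 28.0% of all genes did.

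**Figure D2:**
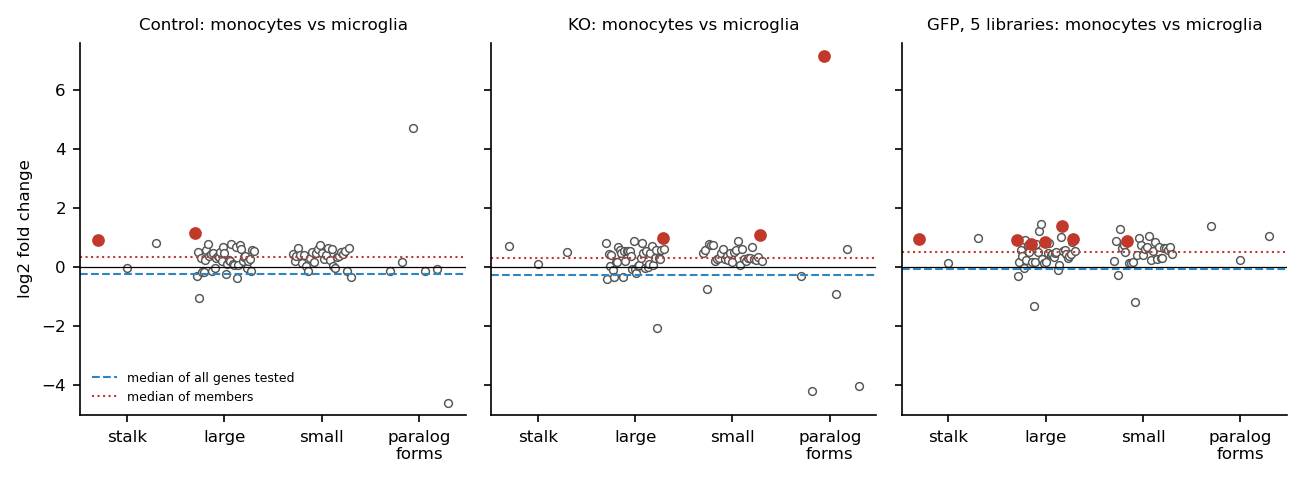
Log2 fold change, monocytes against microglia, of each tested member (points, by subunit, with the stalk proteins and paralog forms apart) in control mice, KO mice and 5 GFP libraries; filled red points were called. The dotted line is the median of the members and the dashed line the median of all genes tested: the members' median stands above in each panel, at 0.34, 0.32 and 0.52.

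Among the stalk proteins, which sit on the large subunit and recruit elongation factors, Rplp0 gave the clearest difference. In control mice Rplp0 stood at 7343, 10391 and 9103 normalized counts in microglia and 20684, 14771 and 15924 in monocytes, with no overlap. The log2 fold was 0.94 (SE 0.24, limma adjusted p = 0.0411). In KO mice the values were 11374, 7186 and 11433 in microglia and 19260.4, 13713 and 15419 in monocytes. These groups did not overlap either, and the log2 fold of 0.71 did not pass (limma adjusted p = 0.118). Of the GFP libraries, microglia 1 and 2 held 307 and 295 of Rplp0 and monocytes 1, 2 and 4 held 507, 749.5 and 536 (log2 fold 0.96, SE 0.23, limma adjusted p = 0.0173). The 3 libraries of few genes stood apart, at 653 and 1523 in microglia 3 and 4 and 3623 in monocytes 3, where Rplp0 alone took 28.6% of the members' reads.

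Its partners Rplp1 and Rplp2, which pair up at the tip of the stalk, did not pass in any comparison. Rplp1 had log2 folds of -0.04 in control mice, 0.10 in KO mice and 0.15 in the 5 GFP libraries, with overlapping groups in each. Rplp2 had 0.83, 0.51 and 0.98 (limma adjusted p = 0.177, 0.445 and 0.0846).

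Rpl10, a large subunit protein that joins late in assembly, was the other member called in control mice. Microglia held 12589.6, 6599 and 9072 and monocytes 19839, 29496 and 13805, a log2 fold of 1.14 (SE 0.30, limma adjusted p = 0.0438). KO microglia held 8358, 9453 and 8348 and KO monocytes 13235, 14198 and 19444; again all monocyte libraries were above all microglia libraries, with a log2 fold of 0.82 and an adjusted p from limma of 0.143. GFP monocytes held 499, 822, 515 and 708 and GFP microglia 375, 333, 362 and 1.48, the last being 1 read in microglia 4. Over 5 libraries the log2 fold was 0.90 (SE 0.25, limma adjusted p = 0.0293).

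Rpl8, which lies in the core of the large subunit, passed in KO mice, with 2833, 2390.3 and 3072 in microglia and 5411, 5900.3 and 4910.1 in monocytes. The log2 fold was 0.97 (SE 0.26, limma adjusted p = 0.0427). Control microglia held 2502, 3539.8 and 2638 and control monocytes 3979, 3518 and 5431, which overlap, and the log2 fold of 0.57 did not pass (limma adjusted p = 0.252). Rpl8 was also called in 5 GFP libraries, at 0.95 (SE 0.25, limma adjusted p = 0.0223), where microglia 1 and 2 held 160.1 and 185 and monocytes 1, 2 and 4 held 325, 396 and 288.

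Rps9, a small subunit protein that binds the body of the small ribosomal RNA, had the smallest adjusted p of the members. KO microglia held 8748, 7686 and 12326 and KO monocytes 19410.5, 20052 and 20463. The log2 fold was 1.09 (SE 0.23, limma adjusted p = 0.0135), and the KO monocytes lay close together. In control mice microglia held 14541, 10489 and 11073 and monocytes 19554, 22769.8 and 15072, a log2 fold of 0.66 that did not pass (limma adjusted p = 0.118). The difference between genotypes in this fold was tested and was not called (log2 0.42, SE 0.32, limma adjusted p = 0.999).

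Rpl5 and Rpl11, large subunit proteins that carry 5S ribosomal RNA and bind Mdm2, did not pass in any comparison. Rpl3 and Rpl13a had log2 folds of -0.21 and -0.15 in control mice and -0.21 and -0.09 in KO mice, below the members' median. Rpl38, which is needed for translation of certain Hox mRNAs, had 0.62 and 0.71 without passing, and was called in 5 GFP libraries at 1.38 (SE 0.37, limma adjusted p = 0.0253). There microglia 1 and 2 held 62.0 and 52.9 and monocytes 1, 2 and 4 held 113, 234 and 131. Rpl41, the shortest ribosomal protein, had 0.38 in control mice and 0.57 in KO mice.

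Among the small subunit proteins, Rps19, the protein most often mutated in Diamond-Blackfan anaemia, did not pass in either genotype. Control microglia held 12845, 10159 and 13479 of it and control monocytes 17355, 19191 and 15849, without overlap (log2 fold 0.53, limma adjusted p = 0.178). Rps3 had log2 folds of -0.03 and 0.21 in control and KO mice, Rps6 had 0.46 and 0.27, Rps26 had 0.42 and 0.58, and Rps27a, made as a fusion with ubiquitin, had 0.25 and 0.06, and Rpsa, also known as the laminin receptor, had -0.32 and 0.20. None of these 5 passed. By subunit, log2 folds were above 0 for 33 of 43 large and 27 of 31 small subunit members in control mice, and for 33 of 43 and 30 of 31 in KO mice.

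**Figure D3:**
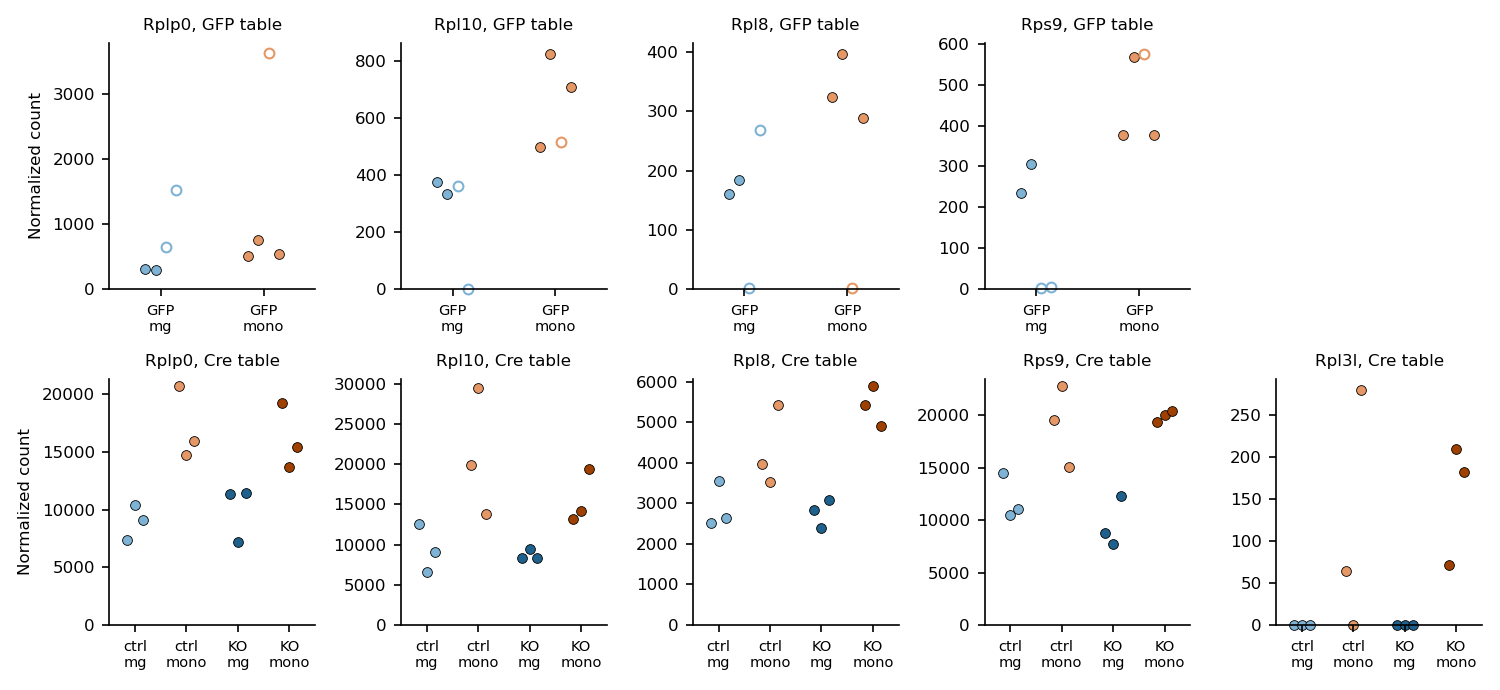
Normalized counts per library (points) of the 5 members called between monocytes and microglia in the Cre table, for the GFP table (top; Rpl3l is not listed there) and the Cre table (bottom), each axis from 0; mg, microglia; mono, monocytes; ctrl, control. Open points are the 3 GFP libraries with few detected genes, where Rplp0 reaches 3623 and Rpl10 falls to 1.48. Rpl3l met the filter on low values only through monocyte libraries.

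Several paralog forms were at 0 in whole groups. Rpl3l, the paralog of Rpl3 that is best known from striated muscle, was at 0 in all 6 Cre microglia libraries. It stood at 64.7, 0 and 280.0 in control monocytes and at 71.2, 210.4 and 183 in KO monocytes. KO monocytes were thus at least 82.7-fold higher than KO microglia, taking 3 reads in the whole KO microglia group as the floor (limma adjusted p = 0.0286). Because Rpl3l met the filter on low values only through monocyte libraries, this call adds no support beyond the values. In control mice the bound was at least 117-fold, with 1 of 3 monocyte libraries at 0 and no call (limma adjusted p = 0.147); without control monocytes 3 it was 32.9-fold and without control monocytes 2 it was 175-fold. Rps4l went the other way, with 0, 69.9 and 204 in control microglia and 0 in all 3 control monocyte libraries; these were at least 41.6-fold lower (limma adjusted p = 0.267). That bound was 15.9-fold without control microglia 3 and 62.4-fold without control microglia 1, and 1 microglia library was at 0 like the monocytes. It stood at 42.9, 97.3 and 221 in KO microglia and at 0, 0.75 and 129.6 in KO monocytes. Rpl39l was at 0 in 6 of the 12 Cre libraries and at 26.2 to 249 in the others. Rpl7l1, Rpl22l1 and Rps27l were detected in all 12, with no call. Rps27l, a p53 target, stood at 4761, 6083 and 5324 in KO microglia and 7149, 9633 and 8331 in KO monocytes, which do not overlap (log2 fold 0.63, limma adjusted p = 0.209). How far reads of a paralog or pseudogene entered these values was not tested.

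Fitted folds of the 77 members outside the paralog forms were compared between control and KO mice, which share no library although they share 1 estimate of spread. Across these members, Pearson's r was 0.53 and Spearman's rho 0.65; members are not independent replicates, and the same r over all 12432 genes was 0.57. Both folds were above 0 for 58 members and both below 0 for 7. Rpl5, Rps12 and Rpl12 stood apart from the rest. For their transcript length they were also among the lowest members of the Cre table (places 78, 77 and 80 of 82). How well reads were assigned to them was not tested. A stricter reading asked which members had every monocyte library above every microglia library in control mice, in KO mice and in the 5 GFP libraries. This held for 6 of 78 members tested in both tables (7.69%), among them Rplp0, Rpl10, Rpl28, Rps9 and Rps28, and for 5.45% of all 7343 genes tested in both. No member had the reverse order throughout, while 332 of the 7343 genes did.

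**Figure D4:**
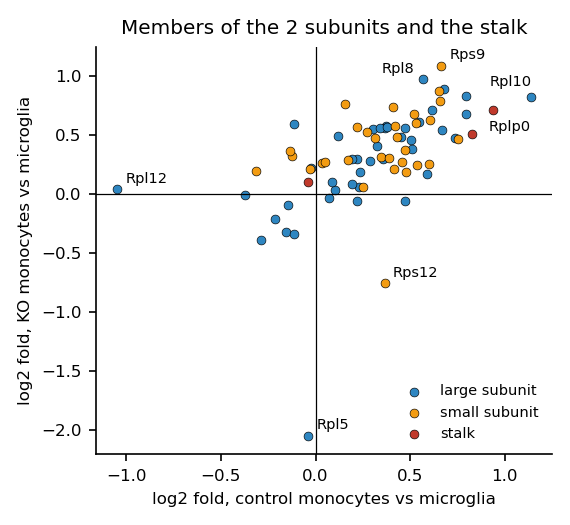
Log2 fold change of monocytes against microglia in control mice (horizontal) and KO mice (vertical) for the 77 members outside the paralog forms, coloured by subunit. Most points lie at the upper right (58 of 77), and Rpl5, Rps12 and Rpl12 lie away from the cloud.

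The second question was whether loss of Cxcr4 changes the members. No member was called between KO and control monocytes by limma (0.0402% of all genes were), between KO and control microglia (0.0322%) or in the genotype-by-population term, where 0% of all genes were called. edgeR called none in any of the 3 tests, and DESeq2 called Rpl12 in monocytes alone. An unadjusted p under 0.05 was reached by 2 members in monocytes (6.08% of all genes), none in microglia (3.53% of all genes) and 1 in the interaction term (4.75% of all genes). The fitted folds leaned to the negative side, with 65 of 83 below 0 in monocytes (median -0.13, all genes 0.05) and 67 of 83 in microglia (median -0.17, all genes 0.05). Without KO monocytes 1, whose share of 3.04% is the lowest of the monocytes, the median in monocytes was 0.02. Without control microglia 1, the median in microglia was -0.06. Neutrophil marker sums reached higher in KO than in control monocytes, as given above, and their part was not tested.

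Rpl12, a protein at the base of the stalk, had the smallest p in monocytes. Control monocytes held 55.3, 121 and 138 and KO monocytes 372, 407 and 266, a log2 fold of 1.81 (SE 0.61, 95% interval 0.47 to 3.14, limma adjusted p = 0.679). These groups did not overlap, and DESeq2 on whole reads gave 1.74 with an adjusted p of 0.0283. For its transcript length Rpl12 was in place 80 of 82 members of the Cre table, and how well reads were assigned to it was not tested. Rpl7a, next to Rpl12 by p, held 4906, 4924 and 7196 in control and 8903, 8256 and 8105 in KO monocytes (log2 fold 0.59, SE 0.22, limma adjusted p = 0.75). Its interaction term was 0.71 (SE 0.31, limma adjusted p = 0.999). The third by p, Rpl5, held 279, 2188 and 382 in control and 145, 588 and 139.6 in KO monocytes, and these overlap.

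In microglia the smallest p belonged to Rpl39l, followed by Rps19. Rps19 held 8718, 7313 and 11934 in KO against 12845, 10159 and 13479 in control microglia, a log2 fold of -0.40 (SE 0.21, 95% interval -0.86 to 0.05, limma adjusted p = 1). These groups overlap. The median half-width of the 95% interval over the members was 0.63 on the log2 scale, with 3 libraries a group. These intervals are not adjusted for the number of genes tested. Larger folds also went uncalled, such as Rpl12 at 1.81 in monocytes, so differences in single members can have been missed above 0.63 as well as below.

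**Figure D5:**
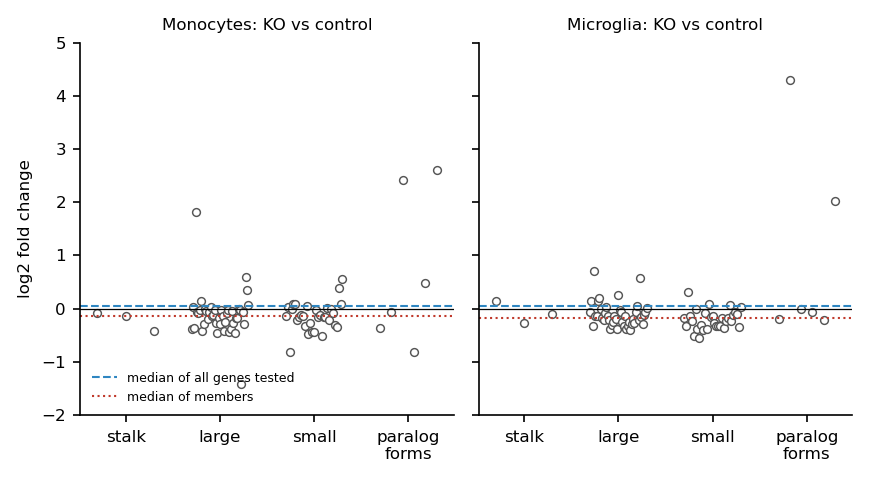
Log2 fold change, KO against control, of each tested member (points, by subunit) in monocytes (left) and microglia (right); no point was called. The median of the members (dotted) lies at -0.13 and -0.17, below that of all genes tested (dashed), and the widest points are Rpl12, Rpl5 and paralog forms.

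Within the groups of the Cre table the members' median spread was below that of all genes. The median coefficient of variation over the tested members was 27.7% in control microglia, 19.7% in control monocytes, 18.9% in KO microglia and 21.3% in KO monocytes, where the median over all tested genes was 63.6%, 76.4%, 50.6% and 64.4%. The levels of the genes compared were not matched. Over the GFP libraries, the 3 with few genes included, the members' medians were 81.9% in microglia and 68.0% in monocytes and those of all genes 103.8% and 74.1%, which are close in monocytes.

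Levels per kilobase of transcript (normalized count divided by the length of the longest principal transcript in GENCODE M21) spread widely, though ribosomes hold most of the proteins in equal number. Paralog forms were ranked with the rest. In the Cre table Rps27 was highest among 82 members with a length, at 10.96 times the members' median, followed by Rps29 at 4.08 times and Rpl41 at 3.23 times. At the low end stood Rpl27, Rps12, Rpl5 and Rpl12, in places 75, 77, 78 and 80, with Rpl5 at 0.0432 and Rpl12 at 0.0251 times the median. Places were then read within each table. In 5 GFP libraries the same members held places 71, 44, 36 and 56, and Rpl5 was at 1.09 times the median of that table. Rpl30, Rpl21 and Rps2 were in places 79, 80 and 76 of 82 in the GFP libraries and 50, 59 and 46 in the Cre table. Library kit and counting differ between the tables, and their part in this was not tested. The chosen transcript of Rps15a is 5179 bases long, so the place of a single member also depends on the annotation.

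Other genes of the translation machinery were read beside the members. The cytosolic ribosomal proteins whose names fall outside the rule, Fau, Rpl36al and Rack1 among them, had positive log2 folds in 4 of 4 in control and KO mice, medians 0.64 and 0.80, with none called. Among initiation factors, 2 of 45 were higher in control monocytes, near the 3.46% of all genes: Eif3h, a subunit of the factor that holds the small subunit (log2 fold 1.57, SE 0.29), and Eif1, which guards start codon choice (0.69, SE 0.19). Eif4ebp1, the mTOR target that holds back cap-dependent initiation, was higher by 2.26 (SE 0.59, limma adjusted p = 0.0431) and was the only 1 of 12 genes in the list on control of ribosome production to pass. Of 35 ribosome assembly factors 2 were lower, Ppan (-5.50, SE 0.47) and Nob1 (-4.99, SE 1.27), where 6.52% of all genes were called in either direction. Ppan, which takes part in large subunit assembly, was at 5946 ± 2012 (SD, n = 3) in control microglia and 136 ± 67.3 (SD, n = 3) in control monocytes.

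Ppan was lower in KO monocytes too, by -3.77 (SE 0.47, limma adjusted p = 0.000580), the only assembly factor of 35 called there. Of 78 mitochondrial ribosomal protein genes, Mrps21 and Mrpl33 were higher in KO monocytes (1.09 and 0.94), and none was called in control mice. No gene of these lists was called for KO against control in either population or in the interaction term. In 5 GFP libraries 4 of 10 elongation and associated factors were higher in monocytes, among them Tpt1 (1.87, SE 0.22) and Btf3 (1.25, SE 0.25), where 8.41% of all genes were called higher. Initiation factors were higher in 4 of 40, Rack1 was higher by 0.90 (limma adjusted p = 0.0382), and none of 28 assembly factors was called. Rptor, the mTOR complex scaffold, and Myc were lower (-1.59 and -1.56), 2 of 11 tested genes on control of ribosome production. Gas5, a noncoding gene that hosts small nucleolar RNAs, was lower by -0.92 (SE 0.20, limma adjusted p = 0.00829), 1 of 3 such hosts tested. Of all genes, 15.5% were called in either direction in this fit. Over all 8 GFP libraries no gene of these lists was called.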

How the data were processed

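The authors deposited a signal per gene, the normalized count, in which each library's reads are divided by its size factor (DESeq2, per the submitters' processing notes, with CASAVA 1.82 for the GFP table and bcl2fastq 2.20 and kallisto for the Cre table). Library kits were Nugen Ovation SoLo (GFP) and SMART-Seq2 (Cre), per the labels. For the genome build, annotation and GFP aligner: not given in the sources used here. Of the values above 0, 100% were whole multiples of 1 read's worth in that library (tolerance 0.01), which gave back whole reads: 617302 to 14927208 per GFP library and 9732177 to 56803993 per Cre library. Floors of 3 reads over a group cover counting error only.

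Genes with 10 or more in at least 4 (GFP) or 3 (Cre) libraries were tested as log2(value + 1) with limma 3.58.1 (R 4.3.3, intensity trend, two-sided), with all 4 Cre groups in 1 fit; fold changes are on that scale, which understates low genes. Alternatives used a pseudocount of 10, other filters and scalings, edgeR 4.0.16 and DESeq2 1.42.0 on recovered reads, the animal as a block, and each library left out. By the labels, the 4 GFP pairs and 4 Cre pairs came from the same animals or pools; residuals correlated by -0.11 to 0.24 (GFP) and -0.06 to 0.01 (Cre). Libraries are replicates by label, and each p-value sets a difference of group means against the pooled spread between libraries. The test was checked on simulated counts whose spread was set in advance and not taken from these libraries. That check does not show how the test behaves at the spread seen here. Named genes were a fixed set of members by role and paralog, up to 4 called members per direction, in comparisons without a call the 3 members of smallest p, and up to 2 called genes per pathway list; further called or outlying members were named after their values were seen. Values of some single genes are not reported here. Members and lists were chosen with earlier results of these data known.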

Additional observations from a re-analysis of the deposited data

Results flagged for a closer look

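In 7 of 40 sets of 4 GFP libraries (the members' share of reads, with and without Rn45s, and single members, in each population), 1 library lay far from the other 3. For a single set of normally spread values chance gives about 1 in 20. The sets share the same libraries and are not independent, so 7 of 40 cannot be set against that rate. The share outside Rn45s was 0.546% in microglia 3, against 0.983% to 1.03% in the others, and 1.92% in monocytes 2, against 1.39% to 1.41%. Microglia 4 held 351 normalized counts of Rplp1 (others 179 to 207), 31.1 of Rpsa (218 to 229) and 1.48 of Rpl10 (333 to 375). Rps6 was at 164 in microglia 3, against 310 to 336 in the others. Rplp0 reached 3623 in monocytes 3, against 507 to 749.5. Monocytes 2 is the most deeply read GFP library, at 14927208 reads.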

How the results depend on the processing

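For control monocytes against microglia, the count of 2 called members became 0 with edgeR, with only the 2 groups in the fit and with upper quartile scaling; 1 with no filter, TMM scaling, scaling to total reads and scaling to total reads without the members; and 5 with DESeq2, of which Rps4l was lower. Leaving out 1 library gave 0 to 2, not always of the same members: Rpl34 was called without control microglia 3, Rpl3l without control monocytes 2 and Rpl18 beside Rpl10 without control monocytes 3. For KO mice the count of 3 became 9 with DESeq2, 1 with edgeR, 4 with only the 2 groups in the fit, 0 to 1 when a library was left out, and 2 with no filter, upper quartile scaling or scaling to total reads, with or without the members, where Rpl8 lost its call. The counts for control and KO mice stand without the share of all genes called, so they do not show a change particular to the members. DESeq2 also called more genes than limma over all genes, as given below. In the GFP table the count of 0 became 1 with a pseudocount of 10 (Rps9), 7 without the 3 libraries of few genes and, in alternatives added after the data were seen, 3 with edgeR, 12 with DESeq2, 12 with the animal as a replicate block and 20 with scaling to total reads without the members on the same 5 libraries; leaving out 1 library gave 0. The GFP counts added after the data were seen stand without the share of all genes called in the same fits. They therefore do not show a rise particular to the members, and the blocked one rests on 2 pairs of libraries. KO against control monocytes went from 0 to 1 with DESeq2 (Rpl12). With the animal as a replicate block no other call changed. Rps9 in KO mice kept its call in 15 of 17 alternatives (adjusted p 0.000643 to 0.0585), Rpl3l in 10, Rpl10 in 9, Rpl8 in 6 and Rplp0 in 5 of 17 (up to 0.213), all with positive folds. Scaling moved the median of all genes, in control mice from -0.24 to -0.47 with upper quartile scaling; relative to it the members' median was 0.58 and over the alternatives 0.26 to 0.76. The members' median stayed positive in all 24, 17 and 17 alternatives of the GFP, control and KO comparisons. Over all genes, calls in the 5 GFP libraries were 1198, against 70 in all 8. DESeq2 called 1614 and 1570 of 12432 genes in control and KO mice, where limma called 810 and 849. The shallowest library, with 617302 reads, limits what can be seen of low members.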

Other observations

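Members detected with at least 1 read numbered 80 to 83 in the 5 GFP libraries with many genes and 69, 60 and 58 in microglia 3, microglia 4 and monocytes 3; in the Cre table they numbered 81 to 84. The member with most reads was Rplp0 in those 3 GFP libraries, Rpl4 or Rpl10 in the other 5, and Rps27 or Rps25 in the Cre libraries. Rps25 led in all 3 KO microglia libraries and in control microglia 2, and Rps27 in the other 8.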
